A study of Mus musculus with 4 samples.

Results

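The elastic fibre and lysyl oxidase genes described here are 10 genes of the elastic fibre, chosen by symbol from the deposited count table: *Eln*, *Fbn1*, *Fbln1*, *Fbln2*, *Fbln5*, *Efemp2*, *Emilin1*, *Mfap5*, *Lox* and *Loxl1*. All 10 were among the 48587 gene symbols of the table, and all 10 were among the 18916 genes that passed the filter on low counts and were tested. The libraries are poly-A RNA of primary vascular smooth muscle cells (VSMCs) from the descending aorta of adult C57BL/6J mice, with no altered allele stated, grown in culture and transduced with a lentivirus that expressed a short hairpin RNA. In the shMettl14 group (n = 2) the hairpin targeted *Mettl14*, the RNA-binding partner of Mettl3 in the enzyme complex that writes N6-methyladenosine (m6A) on mRNA. In the shCTR group (n = 2) it targeted a plant microRNA sequence, so that controls were also transduced. Each group has a library of letter A and a library of letter B. The labels do not say whether the letters stand for animals, cultures or days, so p-values measure only the spread between these libraries, which may be technical.

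Elastic fibres give the aortic wall its recoil, and VSMCs of the media are their main source in the artery. Tropoelastin, the product of *Eln*, is laid on a scaffold of fibrillin microfibrils with the help of fibulins, and lysyl oxidases, which are copper enzymes, cross-link it into insoluble elastin. Most aortic elastin is deposited early in life, and the fibres turn over very slowly. The comparison asks whether the mRNA of the fibre core, the scaffold, the assembly factors and the cross-linking enzymes differed between *Mettl14*-silenced and control VSMCs.

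The libraries held between 114343653 and 124815868 counts each, and a gene with 0 counts could be present at up to between 0.0240 and 0.0262 CPM of its library total (CPM are counts scaled to a common library size), a limit that covers counting error only. CPM values below are scaled by trimmed mean of M values (TMM), and a given order of 4 values is always shCTR A, shCTR B, shMettl14 A and shMettl14 B. *Mettl14* itself was at 18.1, 19.9, 4.60 and 4.37 CPM, with both shMettl14 libraries below both shCTR libraries and a log2 fold change of -2.08 (SE 0.25, unadjusted p = 0.00039, adjusted p = 1 by edgeR's quasi-likelihood test, and adjusted p = 3e-07 by DESeq2). The 10 smooth muscle markers on the list were all tested and summed to 8784, 8857, 6508 and 7786 CPM, and 9 of the 10 had a negative log2 fold change (median -0.41, 0 called by edgeR after adjustment). *Acta2*, smooth muscle actin, was the 1 marker of them with an unadjusted p under 0.05 by edgeR (3547, 2799, 2171 and 2073 CPM, unadjusted p = 0.038). With the letter fitted as a replicate block, 5 of the 10 markers had one (edgeR), against 10.3% of all genes tested. Immunoblots in the paper, which measure protein and not mRNA, showed more Acta2 and calponin (*Cnn1*) when *Mettl14* was silenced in mouse VSMCs. Here *Cnn1* mRNA was at 237, 135, 143 and 118 CPM. Markers of other cells were present too, although the authors stripped the adventitia with enzymes and scraped off the endothelium before culture. The 10 endothelial markers, of which none was at 0, summed to 2049, 4068, 1898 and 2561 CPM, and *Cdh5*, the cadherin of endothelial junctions, was at 508, 818, 567 and 617 CPM. The 10 markers of adventitial fibroblasts summed to 1060, 901, 1098 and 962 CPM, with *Lum* at 0 in shCTR B. Most of that sum came from *Cd34*, *Ly6a*, *Col14a1* and *Dcn*, with means over the 4 libraries of 466.6, 238.7, 180.5 and 105.1 CPM. *Pdgfra* had a mean of 11.72 CPM. *Lum*, *Dpt*, *Dpep1*, *Pi16* and *Clec3b* were low, with means of 0.2106, 0.2882, 0.5298, 0.7058 and 0.9356 CPM. Leukocyte markers, of which 6 of 10 were tested, summed to between 13.0 and 18.0 CPM, and *Cd3e*, a T cell receptor subunit gene, was at 0 in 3 libraries. Bulk RNA cannot tell fewer cells of a type from less RNA per cell, and the part of these other cells in the values that follow was not tested.

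Together the 10 genes took up 1.55% of all counts in shCTR A, 0.957% in shCTR B, 1.51% in shMettl14 A and 1.02% in shMettl14 B. No member had an adjusted p under 0.05 by edgeR, where the share over all genes tested was also 0%. Without a block none had an unadjusted p under 0.05 by edgeR, against 1.67% of the genes tested. DESeq2 also called none of the 10, against 0.0172% of 29127 genes. When the letter was fitted as replicate block, 1 of the 10, *Mfap5*, had an unadjusted p under 0.05 (edgeR), against 10.3% of all genes tested. With 2 libraries a group, an exact two-sided permutation test of a single gene cannot go below p = 0.333, so the members are described by their values in each library. Both shMettl14 libraries lay below both shCTR libraries for *Fbln2* and *Mfap5*, a pattern seen in 13.3% of the genes tested, and above both for *Fbn1*, a pattern seen in 14.7%. The remaining 7 overlapped between the hairpins, and for the same 7 the 2 letters lay farther apart than the 2 hairpins, as they did for 64.2% of the genes tested.

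**Figure D1:**
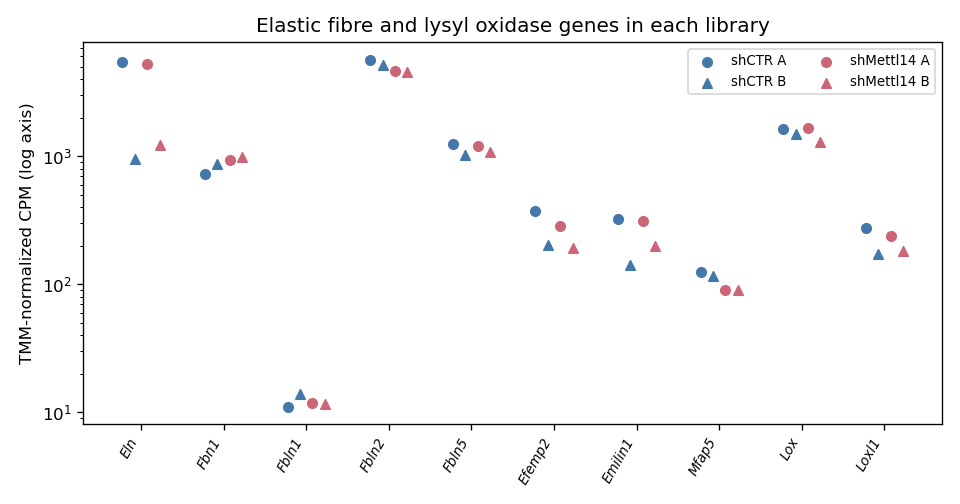
TMM-normalized CPM (log axis) of the 10 genes in each of the 4 libraries, with circles for letter A, triangles for letter B, blue for shCTR and red for shMettl14. *Eln* split by letter, at 5423 and 5237 CPM in the A libraries against 954 and 1219 CPM in the B libraries, while the hairpins separated for *Fbn1*, *Fbln2* and *Mfap5* only.

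*Eln*, which encodes tropoelastin, the core of the fibre (ENSMUSG00000029675, minus strand of chr5:134702593-134747323 in GRCm38), was counted 615957, 103046, 621835 and 158560 times. These counts correspond to 5423, 954, 5237 and 1219 CPM. The libraries of letter A were high under either hairpin and those of letter B low, 5.68-fold apart in shCTR and 4.30-fold apart in shMettl14. Between the A libraries the log2 ratio of shMettl14 to shCTR was -0.05, and between the B libraries it was 0.35. The fitted log2 fold change was 0.02 with an SE of 1.003 (unadjusted p = 0.99, edgeR). With the letter as replicate block it was 0.15 (unadjusted p = 0.39, edgeR). The group means were 3189 ± 3160 CPM in shCTR and 3228 ± 2841 CPM in shMettl14 (SD, n = 2 each), so that the SD between the letters was nearly as large as the mean.

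Of the scaffold genes, *Fbn1* encodes fibrillin-1, the main protein of the microfibrils and the gene altered in Marfan syndrome (ENSMUSG00000027204, minus strand of chr2:125300594-125507993). It was at 725, 872, 939 and 982 CPM. Both shMettl14 libraries were above both shCTR libraries, by 29.6% in the A pair and 12.6% in the B pair. The group means were 798 ± 104 and 960 ± 30.4 CPM (SD, n = 2 each), with a log2 fold change of 0.27 (SE 0.20, unadjusted p = 0.24, adjusted p = 1, edgeR). A gene on the other strand, Gm9913, overlaps 20.1% of the exon bases of *Fbn1*, and since the strand setting of the counting is not given, reads of the pair may be mixed.

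*Mfap5*, which encodes a small glycoprotein that binds fibrillin microfibrils (ENSMUSG00000030116, plus strand of chr6:122505845-122529290), was counted 14084, 12616, 10615 and 11651 times, or 124, 117, 89.4 and 89.6 CPM. Within either hairpin its libraries were close, and the hairpins did not overlap. The change with shMettl14 was -27.9% in the A pair and -23.3% in the B pair, from 120 ± 5.09 to 89.5 ± 0.131 CPM (SD, n = 2 each). The log2 fold change of -0.43 (SE 0.18) carried the lowest p of the 10 genes, 0.067 before adjustment and 1 after it (edgeR). Fitting the letter as replicate block gave -0.43 (unadjusted p = 0.018, adjusted p = 0.39, edgeR). *Mfap5* and *Fbn1* thus lay on opposite sides of their controls in both letters. The ratio of *Mfap5* to *Fbn1* mRNA, in which gene length cancels between libraries, differed by -0.85 on the log2 scale in the A pair and by -0.55 in the B pair. This pair, like the other ratios of members below, was chosen after the values were seen and carries no test.

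*Emilin1* encodes an elastin-associated glycoprotein found where elastin meets the microfibrils (ENSMUSG00000029163, plus strand of chr5:30913402-30921277). Its levels were 323, 141, 311 and 199 CPM. As for *Eln*, the A libraries were above the B libraries under either hairpin, by 1.20 on the log2 scale in shCTR and 0.64 in shMettl14. The log2 ratio of hairpins was -0.06 in the A pair and 0.50 in the B pair. The fitted log2 fold change was 0.14 (SE 0.46, unadjusted p = 0.78, edgeR). With the letter as replicate block it was 0.22 (unadjusted p = 0.24, edgeR).

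The fibulins and *Efemp2* encode assembly factors that bind elastin, microfibrils or both. *Fbln2*, fibulin-2, which binds elastin and fibrillin-1 (ENSMUSG00000064080, plus strand of chr6:91212455-91272540), was at 5658, 5128, 4619 and 4539 CPM. Both shMettl14 libraries were lower, with changes of -18.4% in the A pair and -11.5% in the B pair. The log2 fold change was -0.24 (SE 0.18, unadjusted p = 0.25, adjusted p = 1, edgeR), from 5393 ± 375 to 4579 ± 56.7 CPM (SD, n = 2 each). The separation of *Fbln2* depended on the scaling for its size. With library totals in place of TMM, shCTR B was at 4844 CPM and shMettl14 A at 4785 CPM, still without overlap, while the median of all genes moved to 0.11 on the log2 scale and the shares of non-overlapping genes became 8.22% lower and 21.5% higher.

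*Fbln5*, fibulin-5, which carries tropoelastin to the cell surface and the microfibrils (ENSMUSG00000021186, minus strand of chr12:101746565-101819055), was at 1250, 1029, 1200 and 1074 CPM. The shMettl14 libraries fell inside the range of the shCTR libraries. Its log2 fold change of -0.0035 (SE 0.20, unadjusted p = 0.99, edgeR) was the closest to 0 of the 10, with ratios of -0.06 and 0.06 within letters A and B. The ratio of *Fbln2* to *Fbln5* mRNA was lower with shMettl14 by a log2 difference of -0.23 in the A pair and -0.24 in the B pair.

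*Efemp2*, or fibulin-4, brings lysyl oxidase to tropoelastin, and mice without it fail to form elastic fibres (ENSMUSG00000024909, plus strand of chr19:5473954-5482517). It was at 371, 203, 285 and 190 CPM. It was lower with shMettl14 in each letter, by a log2 ratio of -0.38 in A and -0.10 in B, but shMettl14 A was above shCTR B, so the hairpins overlapped. With library totals the B ratio was 0.05, so that the direction within letter B depended on the scaling. The log2 fold change was -0.27 (SE 0.38, unadjusted p = 0.50, edgeR). Fitting the letter as replicate block gave -0.24 (unadjusted p = 0.17, edgeR). *Fbln1*, fibulin-1 (ENSMUSG00000006369, plus strand of chr15:85205949-85286535), had the lowest level of the 10, at 11.1, 13.8, 11.8 and 11.6 CPM. It had between 1258 and 1506 counts in each library, and both shMettl14 levels lay between those of shCTR, with a log2 fold change of -0.09 (SE 0.25, unadjusted p = 0.74, edgeR).

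**Figure D2:**
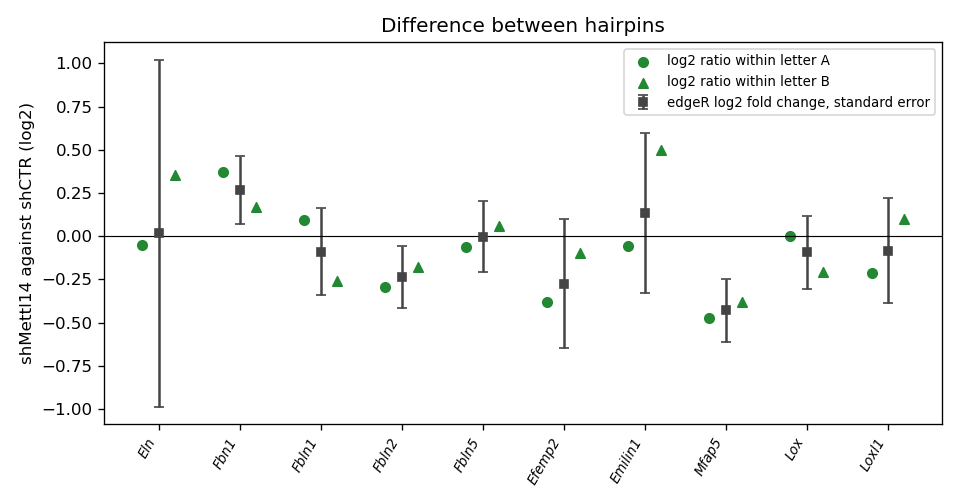
Log2 ratio of shMettl14 to shCTR for each gene within letter A (circles) and letter B (triangles), with the edgeR log2 fold change (squares) and its standard error (bars). *Fbln2*, *Efemp2* and *Mfap5* were below 0 and *Fbn1* above 0 in both letters, apart from *Efemp2* in letter B with library totals, and the bar of *Eln* spans 1.003 to either side.

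The cross-linking enzymes were present in all libraries. *Lox*, the founding lysyl oxidase, whose loss in mice leads to aortic aneurysm (ENSMUSG00000024529, minus strand of chr18:52516067-52529867), was at 1643, 1500, 1647 and 1299 CPM. The A libraries of the hairpins were nearly level, with a ratio of 0.0035, and the B libraries differed by -0.21. The log2 fold change was -0.09 (SE 0.21, unadjusted p = 0.68, edgeR). *Loxl1*, the family member tied to fibulin-5 in elastic fibre upkeep (ENSMUSG00000032334, minus strand of chr9:58287738-58313186), was at 273, 171, 236 and 183 CPM. Both shMettl14 libraries were between the shCTR libraries, and the letters pointed in opposite directions, with ratios of -0.21 in A and 0.10 in B. The log2 fold change was -0.08 (SE 0.30, unadjusted p = 0.79, edgeR). The ratio of *Lox* to *Loxl1* mRNA differed between hairpins by 0.21 on the log2 scale in the A pair and by -0.31 in the B pair. Per kilobase of the principal transcript, *Lox* relative to *Eln* split by letter, at 0.246 and 0.256 in the A libraries and 1.28 and 0.866 in the B libraries. The split between letters does not depend on the length used, but the level does, and with all annotated exon bases *Lox* ranked above *Eln* in both B libraries.

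As a group the 10 genes had 3 positive and 7 negative log2 fold changes (*Fbln5*, at -0.0035, was positive under 4 alternatives and without shCTR A or shMettl14 B), with a median of -0.09 against 0.01 over all genes tested. Under TMM scaling 3 of the 10, *Fbln2*, *Efemp2* and *Mfap5*, were lower within both letters, against 27.7% of all genes tested, and 1, *Fbn1*, was higher within both, against 30.01%. With library totals in place of TMM, 2 were lower within both letters, *Fbln2* and *Mfap5*, against 18.4% of all genes, and 4 were higher within both, *Eln*, *Fbn1*, *Fbln5* and *Emilin1*, against 41.7%. The summed level of the members was 15800, 10130, 14570 and 9786 CPM, lower with shMettl14 in each letter and far apart between letters. As a share of all counts, given above, the B libraries were in the opposite order, at 0.957% in shCTR and 1.02% in shMettl14.

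The gap between letters was the widest feature of *Eln*, *Emilin1*, *Efemp2* and *Loxl1*. In shCTR letter A exceeded letter B by log2 differences of 2.51, 1.20, 0.87 and 0.68 for these genes, and in shMettl14 by 2.10, 0.64, 0.58 and 0.37. *Fbln5*, *Lox* and *Fbln2* were also higher in A under either hairpin. Their log2 differences were 0.28, 0.13 and 0.14 in shCTR and 0.16, 0.34 and 0.03 in shMettl14. *Fbn1* ran the other way, at -0.27 and -0.06. The sign for *Fbln1* and *Mfap5* was not the same under the hairpins. Over all genes tested, the median absolute gap was 0.39 between letters and 0.24 between hairpins. The endothelial markers also differed between letters, with 7 of 10 higher in B and 2 higher in A under either hairpin. The fibroblast markers had 5 of 10 higher in A and 2 higher in B under either hairpin, with *Col14a1*, a collagen gene, at 322, 37.6, 318 and 44.5 CPM and *Dcn*, decorin, at 68.3, 160, 72.3 and 120 CPM. Of the smooth muscle markers 5 were higher in A, among them *Myh11* at 338, 101, 233 and 75.0 CPM, and 5 were higher in B, among them *Myocd*, under either hairpin. The part of these cells in the letter gap of the members was not tested.

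**Figure D3:**
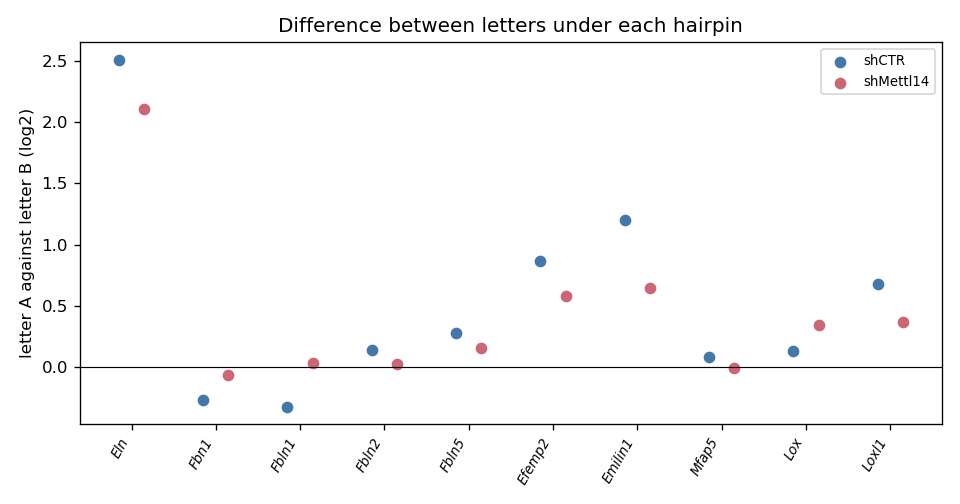
Log2 difference between the A and the B library within shCTR (blue) and within shMettl14 (red) for each gene. *Eln* stood at 2.51 and 2.10, and *Emilin1*, *Efemp2* and *Loxl1* were above 0 under either hairpin, while *Fbn1* was below 0 under either.

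Levels can be compared between genes only per length, here as CPM per kilobase of the principal GENCODE transcript. *Eln* ranked highest in the A libraries at 1407 and 1359 CPM per kilobase and *Fbln2* next at 1182 and 965. In the B libraries *Fbln2* ranked highest at 1071 and 948, and *Eln* was at 248 and 316, beside *Lox* at 316 and 274. *Lox* ranked next in the A libraries, at 347 in each, and *Fbln5* was at rank 4 in each library at between 177 and 215 CPM per kilobase. *Efemp2*, *Emilin1*, *Mfap5*, *Loxl1* and *Fbn1* lay between 36.5 and 141 CPM per kilobase, and their order changed from library to library. *Fbln1* was always the lowest, at between 3.03 and 3.78. The order of *Eln* depended on the length used. With all annotated exon bases in place of the principal transcript, a choice made after seeing the data, *Fbln2* ranked highest in all 4 libraries and *Eln* was at rank 2 in A and rank 4 in B.

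The fit was repeated without each library in turn. With a library left out the letters are no longer balanced between the hairpins, so that these values also hold the gap between letters. *Fbn1* kept a positive log2 fold change, of 0.14 to 0.40, and *Fbln2* and *Mfap5* kept negative ones, of -0.31 to -0.16 and -0.47 to -0.38. *Eln* ran from -1.39 without shMettl14 A to 1.76 without shCTR A. *Emilin1* ran from -0.35 without shCTR B to 0.86 without shCTR A, and *Efemp2* from -0.65 to 0.23 without the same libraries. The sign changed in at least 1 of these 4 fits for 7 members and in none of them for 3.

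**Figure D4:**
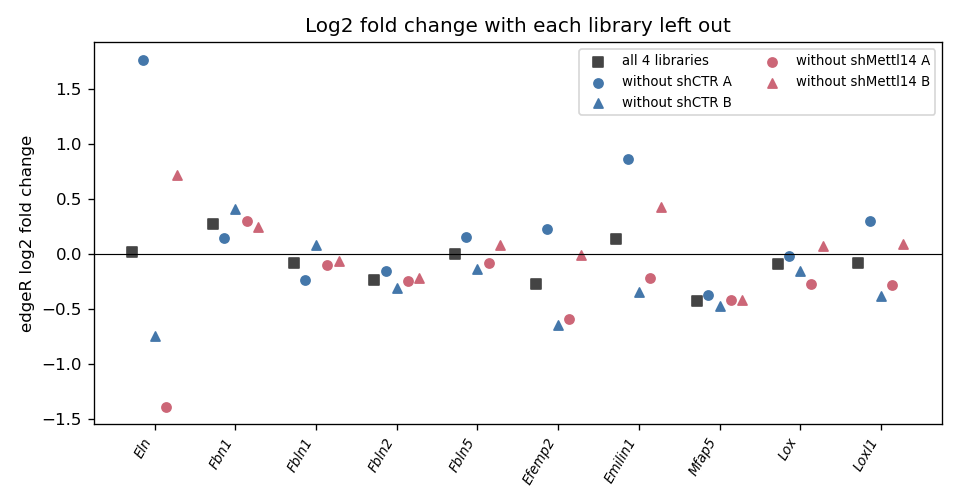
edgeR log2 fold change of each gene with all 4 libraries (squares) and with each library left out in turn (circles for letter A, triangles for letter B, blue for shCTR, red for shMettl14). *Eln* spread from -1.39 to 1.76, whereas *Fbn1*, *Fbln2* and *Mfap5* stayed on their side of 0.

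The members also differ in how often their mRNA holds the word GGACT, the most common form of the sequence in which m6A is written. It was searched on the sense strand of the principal transcript of each gene in GENCODE M21 (GRCm38). The comparison set was 14278 principal transcripts of protein-coding genes with a minimum count summed over the libraries. That is not the filter used for testing. Of these transcripts, 91.9% hold the word, at a median of 1.05 per kilobase. Within 200 bases of the stop codon, where m6A is known to be frequent, 39.7% hold it. The *Eln* transcript holds it 14 times, all in the coding sequence, or 3.63 times per kilobase, which is above 99.3% of the transcripts. *Fbn1* holds it 11 times (0.919 per kilobase), of which 3 are in the coding sequence and 1 in the 3′ UTR, *Fbln2* and *Emilin1* 7 times each (1.46 and 1.82 per kilobase), and *Mfap5* holds none. *Fbln1*, *Fbln5* and *Loxl1* hold 3 each, *Lox* 4 and *Efemp2* 2. In *Eln*, *Fbln2*, *Fbln5*, *Efemp2*, *Emilin1* and *Lox*, or 6 of 10, a copy lies within 200 bases of the stop codon. A match is only a match of letters, and no methylation was measured in these libraries. The authors did sequence RNA pulled down with an m6A antibody from VSMCs with either hairpin. From it the paper places *Fbln2* among genes whose m6A peaks and expression both fell when *Mettl14* was depleted.

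The copies nearest to the stop codon are shown for *Eln*, with the densest word, and for *Fbn1* and *Fbln2*, whose hairpin groups did not overlap. *Mfap5*, the other gene without overlap, has no copy to show. Capitals mark the word, and each run is the RNA-sense strand, 5′ to 3′, as DNA letters of GRCm38.
Eln, 144 bases before the stop codon, minus strand of chr5:134705746-134705774: agacctggctttGGACTttctcccattta
Fbn1, 332 bases after the stop codon, minus strand of chr2:125301240-125301268: cttccatctgatGGACTgttccgcgttgg
Fbln2, 97 bases before the stop codon, plus strand of chr6:91271768-91271796: tctggagccgcgGGACTttgccctagatg
Set beside the differences between hairpins, *Mfap5*, with 0 copies, *Efemp2*, with 2, and *Fbln2*, with 7, were lower in both letters under TMM. With library totals *Efemp2* was not. *Fbn1*, with 11, was higher in both letters. Per kilobase, the 0.919 copies of *Fbn1* were below the 1.46 of *Fbln2* and the median of 1.05. *Fbln5*, with 3, *Emilin1*, with 7, and *Eln*, with 14, differed in sign between the letters under TMM and were positive in both with library totals. *Fbln1* and *Loxl1*, with 3 each, and *Lox*, with 4, differed in sign between the letters under either scaling.

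Other microfibril and elastic fibre genes numbered 18, of which 17 were tested, 5 with a positive and 12 with a negative log2 fold change and a median of -0.08. None was called by edgeR or by DESeq2 at an adjusted p under 0.05, and none had an unadjusted p under 0.05 by edgeR. Those with the most CPM, before any division by length, were *Mmrn2*, an endothelial multimerin at 474, 616, 496 and 495 CPM, and the latent TGF-β binding protein genes *Ltbp3*, *Ltbp1* and *Ltbp2*. Next came *Efemp1*, or fibulin-3, at 327, 200, 294 and 179 CPM. *Ltbp1* was at 568, 223, 540 and 211 CPM and *Ltbp2* at 421, 192, 356 and 145 CPM, so that both split by letter in the way of *Eln*. *Ltbp3* was at 530, 383, 503 and 385 CPM. The lowest unadjusted p were those of *Adamts10*, a protease that acts in microfibril formation (82.5, 68.3, 96.3 and 101 CPM, log2 fold change 0.39, unadjusted p = 0.11, edgeR), and *Mfap4*, an elastin-binding microfibril protein gene (4.75, 5.40, 3.82 and 4.17 CPM, -0.35, unadjusted p = 0.31, edgeR). In neither did the hairpins overlap. Of the 17, 2 were lower (*Mfap4* and *Glb1*) and 2 higher (*Adamts10* and *Fbln7*) without overlap, against 13.3% and 14.7% of all genes tested.

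Of 11 genes for the other lysyl oxidases, the activation of pro-lysyl oxidase and the supply of copper, all were tested. They had 5 positive and 6 negative log2 fold changes and a median of -0.12. None passed either threshold by edgeR without a block. With the letter as replicate block 5 of the 11 had an unadjusted p under 0.05 (edgeR), against 10.3% of all genes tested. *Loxl2*, a lysyl oxidase known for acting on collagen IV, was at 149, 315, 88.6 and 153 CPM. It was lower with shMettl14 within each letter, by log2 ratios of -0.75 and -1.04, but shMettl14 B was just above shCTR A, and the log2 fold change of -0.94 (SE 0.46) had an unadjusted p of 0.098 (edgeR). By DESeq2 its unadjusted p was 0.049 and its adjusted p 1. With the letter as replicate block its unadjusted p was 2e-04 and its adjusted p 0.12 (edgeR). *Loxl3* was at 161, 125, 113 and 106 CPM (log2 fold change -0.38, unadjusted p = 0.14, edgeR). Its exon bases are overlapped by Htra2 on the other strand for 11.6%, so reads may be mixed, as for *Fbn1*. *Bmp1*, the protease that cleaves pro-lysyl oxidase, was at 321, 294, 315 and 253 CPM, and *Pcolce*, an enhancer of that protease on procollagen, was at 235, 251, 205 and 195 CPM. *Loxl3* and *Pcolce* were the 2 genes of the 11 that were lower without overlap, and 0 were higher, against 13.3% and 14.7% of all genes tested. *Postn*, periostin, which helps Bmp1 act on lysyl oxidase, was at 84.0, 139, 132 and 186 CPM, and *Fn1*, fibronectin, was at 27730, 68040, 32180 and 46310 CPM. *Fn1* was thus higher in the B libraries, opposite to *Eln*.

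The elastin-degrading proteases numbered 10, of which 7 were tested, 1 with a positive and 6 with a negative log2 fold change and a median of -0.13. *Elane*, the neutrophil elastase gene, was at 0 counts in all libraries, which allows up to 0.0262 CPM of the library total before TMM scaling. The cathepsin genes *Ctsb* and *Ctsl*, with the most CPM of the list before any division by length, were at 1049, 912, 932 and 862 CPM and at 847, 919, 737 and 727 CPM. *Ctsl* had a log2 fold change of -0.27 (unadjusted p = 0.20, edgeR). Gm47123 on the other strand overlaps 26.8% of the exon bases of *Ctsl*, and Gm49230, a pseudogene on the same strand, 6.09%. Fdft1 on the other strand overlaps 12.8% of those of *Ctsb*, so reads of these genes may be mixed. The gelatinase gene *Mmp2* was at 674, 495, 617 and 519 CPM, *Mmp14*, which encodes a membrane-bound activator of pro-MMP2, at 854, 325, 602 and 390 CPM, and the cathepsin K gene *Ctsk* at 45.8, 41.3, 36.8 and 46.3 CPM. *Mmp3*, stromelysin-1, was low at 2.97, 3.76, 1.55 and 2.72 CPM (log2 fold change -0.65, unadjusted p = 0.19, edgeR). *Ctsl* and *Mmp3* were the 2 of 7 that were lower without overlap, and *Mmp9* was the 1 that was higher, against 13.3% and 14.7% of all genes tested. *Mmp9* rests on only 9, 2, 10 and 18 counts. No protease was called by edgeR, by DESeq2 at an adjusted p under 0.05, or by edgeR at an unadjusted p under 0.05.

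**Figure D5:**
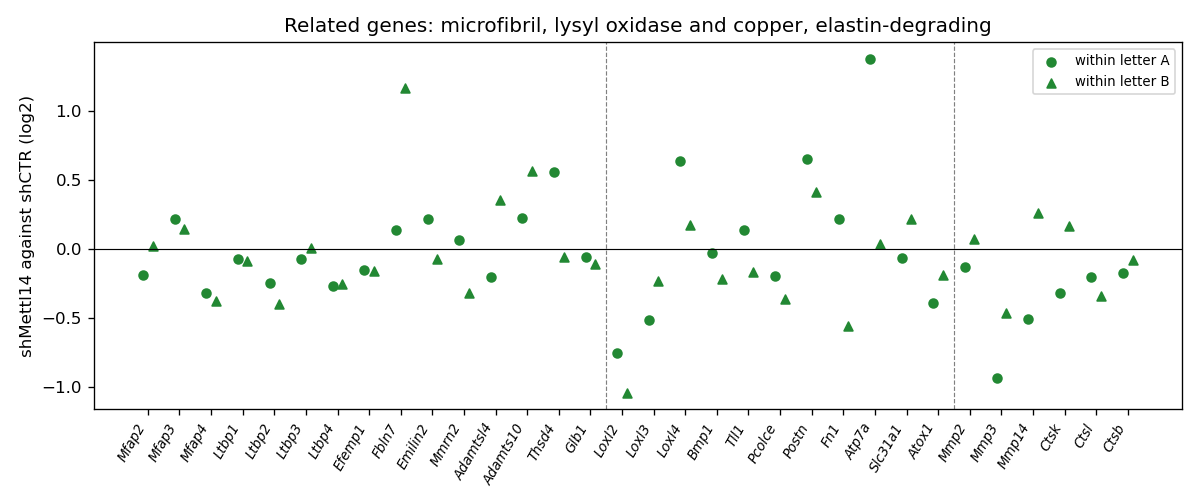
Log2 ratio of shMettl14 to shCTR within letter A (circles) and letter B (triangles) for related genes with a mean of at least 1 CPM, in 3 blocks split by dashed lines. *Loxl2* was at -0.75 and -1.04 and *Mmp3* at -0.93 and -0.46, while *Ltbp1* stood at -0.07 and -0.09 and *Efemp1* at -0.15 and -0.16.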

How the data were processed

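The authors enriched poly-A RNA, made strand-specific libraries, sequenced both ends, mapped them with STAR to GRCm38 (mm10, Ensembl 86) and used featureCounts to count them by gene. The deposited counts are whole numbers per gene symbol for 4 libraries, without normalization. How multimapping reads and strand were treated is not given in the sources used here. All 4 columns were used.

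Genes were filtered with filterByExpr and compared between shMettl14 and shCTR with edgeR 4.0.16 in R 4.3.3 (TMM, robust quasi-likelihood fit, no block, Benjamini-Hochberg adjustment over 18916 genes, adjusted p under 0.05). Standard errors come from the log2 fold change and the F statistic. Within-letter log2 ratios came from log2 CPM at a prior count of 2. Gene places, transcripts and overlaps came from GENCODE M21. Precision rests on 114343653 to 124815868 counts per library and on 2 libraries per group. Alternatives were DESeq2 1.42.0, RLE and upper-quartile factors, other filters (1 count in total, or 10 counts in every library), the letter as replicate block, each library left out, a prior count of 0.5, and library totals. The edgeR and DESeq2 tests were run on simulated counts with known changes and no letter effect. How they behave under a gap between letters like the one seen here was not tested. Named genes are the 10 members, *Mettl14*, every list gene past the threshold and, in each related list, the 5 with the highest mean CPM and the 2 with the lowest unadjusted p. *Elane*, *Glb1*, *Fbln7*, *Mmp9* and the markers given by name fall outside this rule and were named after their values were seen. The members and lists were chosen with earlier results of these data known. Ratios of 2 members, and the library totals and exon-length alternatives for the order of groups and levels, were chosen after seeing the data. Protein sequences were not used here.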

Additional observations from a re-analysis of the deposited data

How the results depend on the processing

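No member and no listed gene was called under any alternative. Over all genes, edgeR called 0, DESeq2 5, the replicate block 9, and edgeR with a library left out 0 to 1 (the 1 without shCTR B) after adjustment. At an unadjusted p under 0.05, edgeR's quasi-likelihood test counted 315 genes, DESeq2 442 and the replicate block 1941, among them 1 member, *Mfap5* (unadjusted p = 0.018, adjusted p = 0.39, edgeR with the block). With the block *Mettl14* had an adjusted p of 0.0039 and *Loxl2* an unadjusted p of 2e-04 and an adjusted p of 0.12 (edgeR). An unadjusted p under 0.05 with the block was found for 10.3% of all genes, for 5 of 11 genes in the list of *Loxl2*, 5 of 10 smooth muscle markers, 1 of 17 microfibril genes, 1 of 7 proteases, 1 of 10 endothelial, 1 of 6 leukocyte and 0 of 10 fibroblast markers. Libraries of the same letter deviated together (r = 0.58, across genes), but the labels do not say that a letter marks a shared culture. The log2 fold change of *Fbln5*, -0.0035, turned to 0.017 with upper-quartile factors, 0.0078 with no filter, 0.0083 with at least 10 counts in every library and 0.0011 with the replicate block, all far below its SE of 0.20. With libraries left out, values ran from -1.39 to 1.76 for *Eln*, -0.24 to 0.077 for *Fbln1*, -0.14 to 0.15 for *Fbln5*, -0.65 to 0.23 for *Efemp2*, -0.35 to 0.86 for *Emilin1*, -0.27 to 0.072 for *Lox* and -0.39 to 0.30 for *Loxl1*, each changing sign in fits whose letters are unbalanced, and the single library left in a group was assumed to vary like the other group. *Fbn1*, *Fbln2*, *Mfap5* and *Mettl14* (-2.15 to -2.01) kept their sign in all alternatives run. Library totals moved 4 of 20 within-letter ratios of members beyond their spread, to -0.03 for *Fbln2* and 0.20 for *Fbln5* in letter B and to -0.39 and -0.24 for *Mfap5* in A and B. They also turned the sign of 4, to 0.03 for *Eln*, 0.02 for *Fbln5* and 0.02 for *Emilin1* in A and to 0.05 for *Efemp2* in B. Each member had at least 1258 counts in every library.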
